A study of Mus musculus with 9 samples.

Results

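The genes described here are 41 genes of the lysosome and of autophagy in mouse intraperitoneal macrophages, taken by gene symbol from a named list. All 41 were found among the 15343 genes of the RNA-seq table, and all 41 passed the filter on low values, which left 13895 genes for testing. The list holds 3 transcription factors of the TFEB family, 6 membrane and lipid transport proteins, 10 proteases, 9 glycosidases and lipid hydrolases or their activator, 5 subunits of the proton pump and 8 autophagy genes. The cells were primary macrophages of a strain written CF7B1/6, marked WT, and every library came from cells stimulated with lipopolysaccharide (LPS, a bacterial cell wall component) at 100 ng/ml for 6 h. The DHA group had received the omega-3 fatty acid DHA (docosahexaenoic acid) at 100 µM for 1 h before LPS. The cpdA group had received cpdA, a small molecule agonist of the fatty acid receptor Gpr120 (gene Ffar4), at 10 µM for 1 h before LPS. No pretreatment is given for the third group, called LPS here. Each group had 3 libraries, no unstimulated libraries were analysed here, and the sources used here give no age, sex or number of animals per library. Nothing says that the 3 libraries of a group came from separate animals or cultures, so p-values measure the spread between libraries, which may be technical.

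Lysosomes are acidic compartments in which proteases, glycosidases and lipid hydrolases break down material taken up from outside or delivered from inside the cell. Autophagy is the inside route: a membrane closes around cytoplasm and then fuses with a lysosome. Macrophages are rich in lysosomes because they digest what they engulf. The transcription factors TFEB, TFE3 and MITF bind a short DNA element, TCACGTG, near many lysosomal and autophagy genes, and the kinase complex mTORC1 on the lysosome surface holds TFEB in the cytoplasm when nutrients are plentiful.

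The element can be seen in the promoters of some of the genes. RefSeq windows (GRCm38.p6, from 250 bases before to 50 bases after an annotated start) were matched for 33 of the 41 genes. No window was matched for Npc1, Ctsb, Ctsh, Asah1, Atp6v0d2, Atp6v1b2, Atp6v1h and Becn1. The following stretches, written 5′ to 3′ on the strand of the gene, are shown because they hold the core CACGTG in 1 gene or more of 5 of the role groups. Capitals mark CACGTG with a flanking T on its left or A on its right where present.
Lamp1: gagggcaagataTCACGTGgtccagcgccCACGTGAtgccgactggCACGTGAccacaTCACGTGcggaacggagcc
Mcoln1: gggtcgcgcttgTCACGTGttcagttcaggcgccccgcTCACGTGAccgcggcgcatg
Ctsa: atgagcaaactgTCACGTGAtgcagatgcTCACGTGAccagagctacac
Gla: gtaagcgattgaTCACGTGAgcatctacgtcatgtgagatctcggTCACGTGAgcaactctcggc
Atp6v0d1: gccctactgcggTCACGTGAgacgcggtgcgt
Atg7: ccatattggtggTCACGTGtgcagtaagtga

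The Lamp1 stretch lies at chr8:13159087-13159163 on the plus strand and holds 4 matches, the first beginning at position -61 relative to the start. Mcoln1 (chr8:3500435-3500492, plus strand) has matches at -71 and -45, and Ctsa (chr2:164833748-164833796, plus strand) has them at -12 and 5, on either side of its start. In Gla (chrX:134601181-134601245, minus strand) the matches begin at -227 and -194. Atp6v0d1 (chr8:105566049-105566080, minus strand) has 1 match, at -3, and Atg7 (chr6:114670951-114670981, plus strand) has 1, at -132.

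On either strand, CACGTG was present in the windows of 13 of the 33 genes (39.4%), against 1218 of 10464 tested genes with a window (11.6%). The longer TCACGTG, which contains CACGTG, was present in 11 of the 33 (33.3%), against 723 of the 10464 (6.91%). In the wider lysosome and autophagy set described below, 140 genes had a window. Of these, 27 held CACGTG (19.3%) and 24 held TCACGTG (17.1%), so the shares of the 33 do not stand for such genes at large. The other holders of CACGTG among the 33 were Cln3, Ctsd, Ctsl, Gaa, Glb1, Atp6v1a and Atg5. None of the 3 TFEB family genes held it in these windows. Holders were found on every side of the expression data described below. CACGTG was present in 4 of the 8 windowed genes whose DHA libraries all lay above the LPS libraries, in 2 of the 5 whose DHA libraries all lay below, and in 7 of the 20 whose groups overlapped. A match describes only the letters in a window.

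Values are normalized counts, that is reads per gene divided by 1 size factor per library, and recovered depth ran from 13797079 reads in DHA 1 to 37572822 in cpdA 2. Libraries LPS 3 and cpdA 3 stood apart from the rest across all genes. The first principal component (40.5% of the variance) set cpdA 3 apart and the second (28.8%) set LPS 3 apart. The 8 macrophage markers were all detected, with a summed normalized count of 332922.5 in LPS 3, 386341.3 in cpdA 3 and 562621.9 to 588637.7 in the other libraries. Most of that sum was Lyz2 (210400 to 459800), and Cd68 lay between 33310 and 38110. The median of the 8 relative to the mean of LPS 1 and LPS 2 differed less. On the log2 scale it was -0.19 in LPS 3, -0.42 in cpdA 3, -0.16 in DHA 2 and -0.03 to 0.08 in the others. A nuclear RNA list (5 genes) had a median 0.71 above the mean of LPS 1 and LPS 2 on the log2 scale in LPS 3, 0.97 in cpdA 3 and 0.40 in DHA 2. All 10 markers of mesothelium and fibroblasts were detected, with a sum of 49315.8 in LPS 3, 37285.4 in cpdA 3 and 28595.6 to 35278.6 in the other libraries. Of the neutrophil markers 5 of 10 were found, with a sum over the 4 tested of 3561.1 in cpdA 3 and 5232.1 to 8533.6 in the others, most of it Csf3r. Of the B cell markers 5 of 5 were found, of the T and NK cell markers 3 of 7, of the mast cell and eosinophil markers 6 of 9 and of the dendritic cell markers 5 of 6, and the tested ones of each list summed to at most 436.3 in any library. The part of these differences in the results below was not tested. In bulk RNA, fewer cells of a type and less RNA per cell cannot be told apart.

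**Figure D1:**
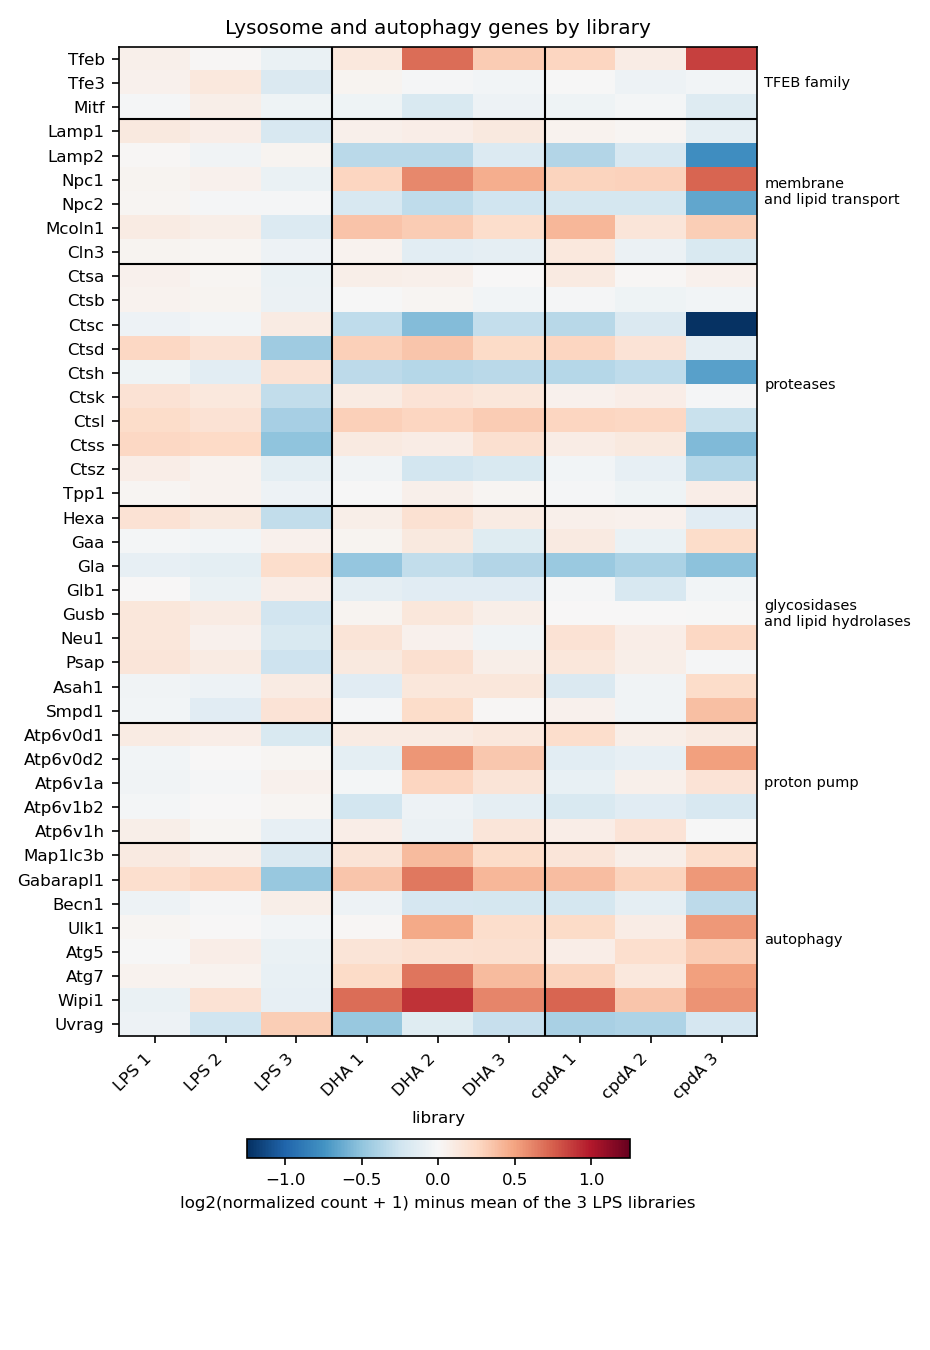
Each row is 1 of the 41 genes, grouped by role, and each column 1 of the 9 libraries. Colour is the log2 normalized count (plus 1) minus the mean of the 3 LPS libraries. Wipi1, Npc1 and Atg7 lie above the LPS mean in all DHA and cpdA libraries, while Gla, Ctsc, Ctsh and Lamp2 lie below it, and columns LPS 3 and cpdA 3 differ from their own groups.

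No gene of the 41 passed an adjusted p of 0.05 (limma, Benjamini-Hochberg over 13895 genes) between DHA and LPS, where 1 gene in the table did (0.00720%). At an unadjusted p under 0.05, limma gave 8 of the 41 (19.5%), against 14.2% of all tested genes. That count was 4 without LPS 3 (9.76%, against 8.90% of all genes), 4 without DHA 2 (against 7.41%), 5 without DHA 3 (against 8.84%) and 13 without cpdA 3 (31.7%, against 22.5%). With the replicate number as a block it was 6 (14.6%, against 14.9% of all genes). With all libraries and no block, higher means under DHA accounted for 6 of the 8 (Npc1, Mcoln1, Map1lc3b, Gabarapl1, Atg7 and Wipi1, against 7.49% of all genes). Lower means accounted for 2 (Ctsh and Gla, against 6.66%). The quasi-likelihood test of edgeR on recovered reads called 0 of the 41 and 3 genes in the table (0.0216%), and DESeq2 called 1, Wipi1 (adjusted p = 0.00771), among 315 genes (2.27%). The 3 DHA and 3 LPS libraries did not overlap for 17 of the 41 (41.5%), against 28.0% of all tested genes. For 9 of them (22.0%, against 13.0% of all genes) all DHA libraries were above all LPS libraries: Tfeb, Npc1, Mcoln1, Ctsl, Map1lc3b, Gabarapl1, Atg5, Atg7 and Wipi1. For 8 (19.5%, against 15.0%) all were below: Lamp2, Npc2, Ctsc, Ctsh, Gla, Glb1, Atp6v1b2 and Becn1. The change was positive for 27 of the 41 and its median was 0.08, against a median of 0.00 and 49.8% positive over all tested genes.

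The comparison of cpdA with LPS uses the same 3 LPS libraries as the comparison of DHA with LPS, so the values of the compounds are given side by side and are not independent. With cpdA, too, 0 of the 41 passed the adjusted threshold in limma, where 1 gene did (0.00720%). At an unadjusted p under 0.05 limma gave 11 of the 41 (26.8%), against 14.6% of all tested genes. With the replicate number as a block it was 7 (17.1%, against 14.6% of all genes), without LPS 3 it was 5 (12.2%, against 10.0%), and without LPS 1 or without DHA 3 it was 6 (14.6%, against 11.9% in each). With all libraries and no block, the higher means were those of 5 genes (Npc1, Mcoln1, Atg5, Atg7 and Wipi1, against 6.56% of all genes) and the lower means those of 6 (Lamp2, Ctsc, Ctsh, Gla, Becn1 and Uvrag, against 8.05%). The edgeR test called 0 of the 41 and 1 gene in the table (0.00720%). DESeq2 called Gla (adjusted p = 0.0135) and Ctsh (adjusted p = 0.0382) among 391 genes (2.81%). Groups did not overlap for 15 of the 41 (36.6%, against 22.9% of all genes), 8 above LPS (19.5%, against 10.7%) and 7 below (17.1%, against 12.2%). The 8 above were Tfeb, Npc1, Mcoln1, Gabarapl1, Ulk1, Atg5, Atg7 and Wipi1, and the 7 below were Lamp2, Npc2, Ctsc, Ctsh, Gla, Atp6v1b2 and Becn1. The change was positive for 24 of the 41, with a median of 0.04, against 49.4% positive over all genes. With quantile normalization in place of the deposited size factors, the positive changes numbered 30 of 41 for DHA and 32 of 41 for cpdA.

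**Figure D2:**
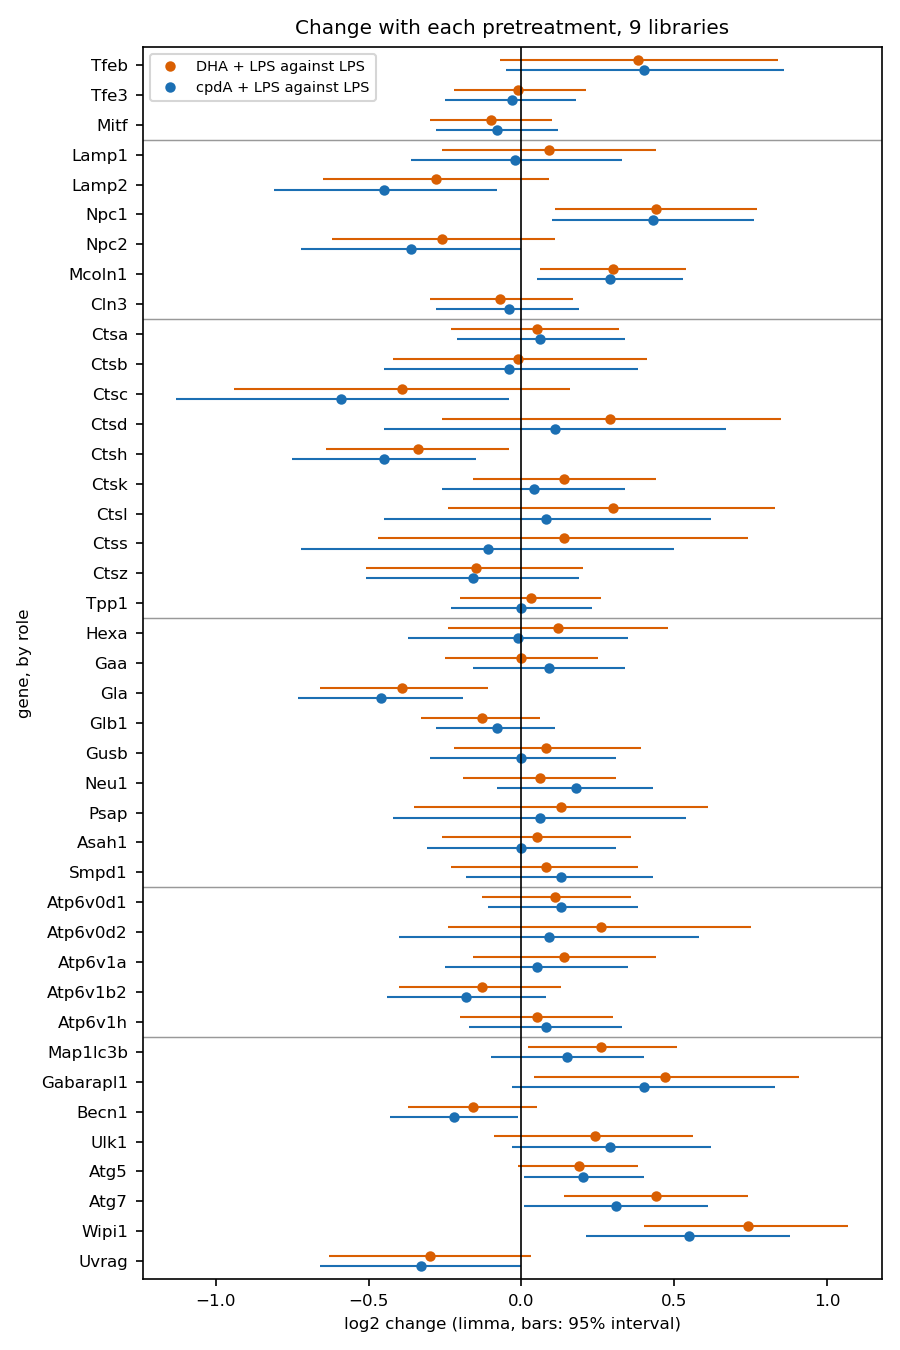
Points are the log2 change of each of the 41 genes under DHA and under cpdA against the same LPS libraries, and bars are 95% intervals from limma (3 libraries per group). Wipi1 has the highest change in both comparisons (0.74 and 0.55), and Ctsc and Gla the lowest (-0.39 each under DHA, -0.59 and -0.46 under cpdA).

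The TFEB family holds the transcription factors themselves. Tfeb, the member best known for driving lysosomal genes, had normalized counts of 603, 584 and 544 in LPS 1 to 3. Its counts were 633, 936 and 719 in DHA 1 to 3 and 694, 615 and 1042 in cpdA 1 to 3. Every treated library was above every LPS library, but DHA 1 and cpdA 2 exceeded LPS 1 only slightly, and DHA 2 and cpdA 3 were the highest. The log2 change was 0.38 with DHA (SE 0.20, limma adjusted p = 0.414) and 0.40 with cpdA (SE 0.20, adjusted p = 0.388), and these were 0.23 without DHA 2 and 0.18 without cpdA 3. Tfe3, a close relative of TFEB, had 2496, 2631 and 2122 in the LPS, 2463, 2377 and 2352 in the DHA and 2405, 2296 and 2355 in the cpdA libraries. Mitf, the relative known from pigment cells and osteoclasts, had 3077, 3264 and 2987 in the LPS, 2998, 2724 and 2979 in the DHA and 2988, 3051 and 2788 in the cpdA libraries. The groups overlapped for Tfe3 and Mitf, whose changes lay between -0.10 and -0.01.

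Among the membrane and lipid transport genes, Npc1 and Npc2 encode the proteins that pass cholesterol out of the lysosome, one in its membrane and one in its lumen. Npc1 counts were 4742, 4834 and 4371 with LPS, 5582, 7048 and 6382 with DHA and 5642, 5654 and 7704 with cpdA. All treated libraries were above all LPS libraries, with cpdA 3 the highest. The change was 0.44 with DHA (SE 0.15, limma adjusted p = 0.277) and 0.43 with cpdA (SE 0.15, adjusted p = 0.253), the latter 0.28 without cpdA 3. Npc2 went the other way in its means: 63129, 61502 and 61558 with LPS, 53862, 49713 and 52161 with DHA and 53387, 53439 and 39558 with cpdA. Its groups did not overlap either, and its change was -0.26 with DHA (SE 0.16, limma adjusted p = 0.483) and -0.36 with cpdA (SE 0.16, adjusted p = 0.344), or -0.22 without cpdA 3.

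Lamp1 and Lamp2 encode the main glycoproteins of the lysosomal membrane, and Lamp2 also serves a route by which single proteins enter the lysosome. Lamp2 counts were 28291, 27137 and 28731 with LPS, 22272, 22265 and 24875 with DHA and 21754, 24332 and 16400 with cpdA. Every treated library was below every LPS library, with changes of -0.28 (SE 0.16, limma adjusted p = 0.450) for DHA and -0.45 (SE 0.16, adjusted p = 0.268) for cpdA, or -0.29 without cpdA 3. Lamp1 did not follow it, at 73681, 71594 and 58993 with LPS, 70790, 71832 and 73805 with DHA and 70031, 68845 and 62225 with cpdA, where the low values are LPS 3 and cpdA 3. Mcoln1, the calcium channel of the lysosomal membrane, had 1499, 1476 and 1242 with LPS, 1797, 1743 and 1634 with DHA and 1864, 1551 and 1736 with cpdA. Its treated libraries all exceeded its LPS libraries, with changes of 0.30 and 0.29 (SE 0.11 each, limma adjusted p = 0.293 and 0.276). Cln3, a membrane protein mutated in a childhood lysosomal storage disease, had changes of -0.07 and -0.04.

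**Figure D3:**
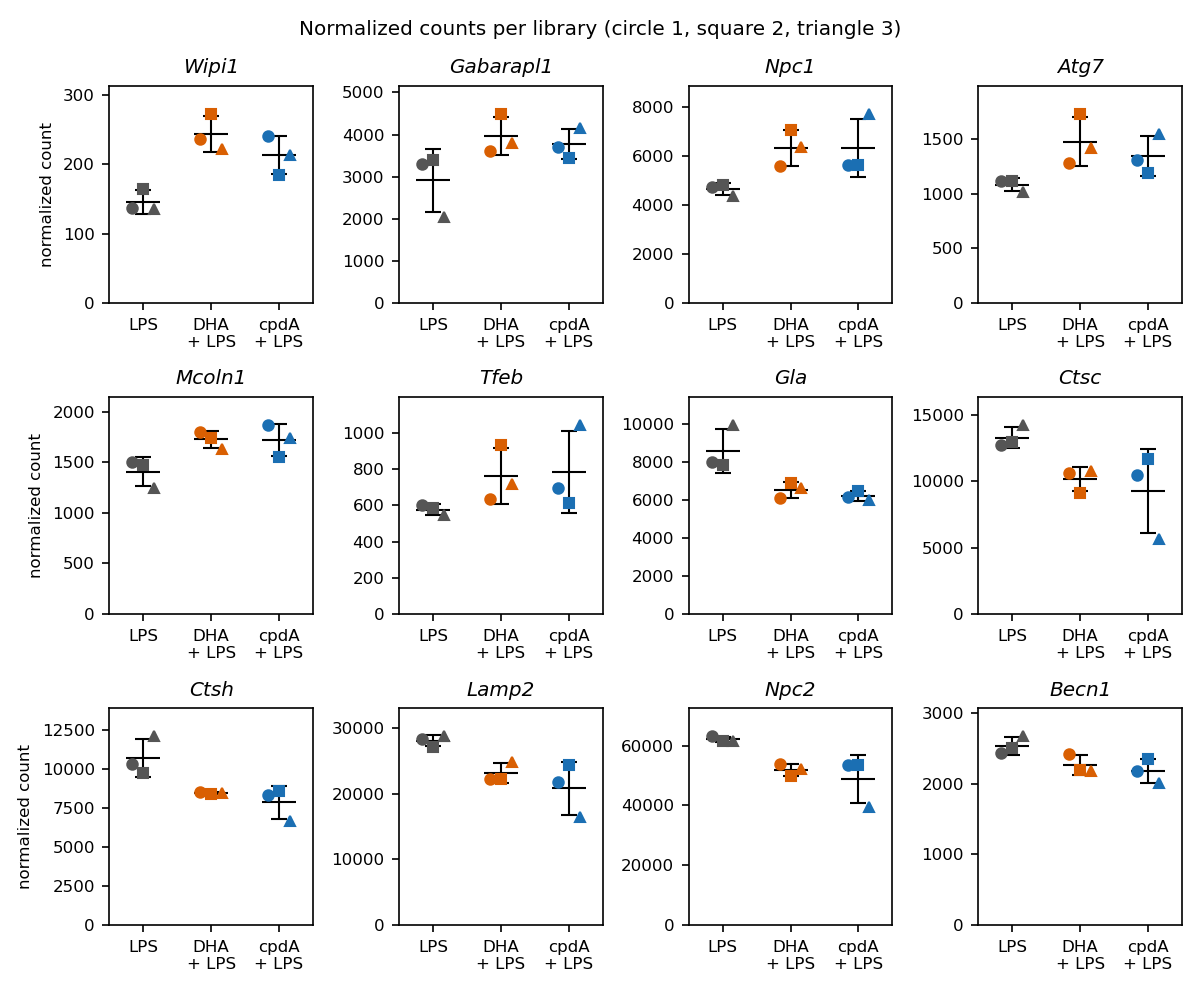
Normalized counts of 12 of the genes in each library (points, by group) with the mean and SD of 3 libraries. For Wipi1, Gabarapl1, Npc1, Atg7, Mcoln1 and Tfeb all DHA and cpdA points lie above the LPS points. For Gla, Ctsc, Ctsh, Lamp2, Npc2 and Becn1 they lie below them.

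The 10 proteases held the largest share of the reads, 4.17% of the normalized counts of LPS 1 out of 7.11% for all 41 genes. Ctsd, encoding the aspartic protease cathepsin D, had counts of 453742, 431803 and 279472 with LPS, 465707, 482459 and 447635 with DHA and 457460, 427023 and 352113 with cpdA. LPS 3 and cpdA 3 were the lowest, and the DHA change of 0.29 (SE 0.25) was 0.07 without LPS 3. Ctsb, encoding the cysteine protease cathepsin B, had 420602, 415542 and 385572 with LPS, 405062, 412852 and 396679 with DHA and 401662, 392805 and 396070 with cpdA, so the groups overlapped, with changes of -0.01 and -0.04. Ctsl and Ctss, encoding the cysteine proteases cathepsins L and S, the latter known for antigen processing, were lowest in LPS 3 and cpdA 3. Ctsl counts were 93325 in LPS 3 and 102650 in cpdA 3 and lay between 141201 and 154884 in the other 7 libraries. Ctss counts were 94989 and 91731 in those libraries and between 143937 and 160965 in the others. All DHA libraries were above LPS for Ctsl, whose change was 0.30 with all libraries and 0.09 without LPS 3, while that of Ctss was 0.14 and -0.12.

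Ctsc and Ctsh were the proteases whose treated libraries all lay below LPS. Ctsc encodes cathepsin C, a dipeptidyl peptidase that activates serine proteases of immune cells. Its counts were 12715, 12924 and 14218 with LPS, 10658, 9117 and 10765 with DHA and 10440, 11712 and 5652 with cpdA. The changes were -0.39 (SE 0.24, limma adjusted p = 0.485) and -0.59 (SE 0.24, adjusted p = 0.319), and the cpdA change was -0.26 without cpdA 3, whose count was the lowest of all. Ctsh, encoding the aminopeptidase cathepsin H, had 10324, 9780 and 12109 with LPS, 8504, 8376 and 8447 with DHA and 8340, 8594 and 6665 with cpdA. Its DHA libraries lay close together (SD 64.4 around a mean of 8442.3, n = 3), and its changes were -0.34 (SE 0.13, limma adjusted p = 0.314) and -0.45 (SE 0.13, adjusted p = 0.231). Its highest library was LPS 3 and its lowest cpdA 3, and without both the changes were -0.25 and -0.25. The other 4 proteases were Ctsa, Ctsk, Ctsz and Tpp1. Their changes lay between -0.16 and 0.14 in the comparisons with LPS and their libraries overlapped.

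Of the glycosidases and lipid hydrolases, Gla had the largest change in size in both comparisons. It encodes alpha-galactosidase A, which removes galactose from glycolipids and is deficient in Fabry disease. Gla counts were 7955, 7835 and 9906 with LPS, 6077, 6891 and 6612 with DHA and 6160, 6465 and 5969 with cpdA. All treated libraries were below all LPS libraries, and the LPS library farthest from them was LPS 3. The change was -0.39 with DHA (SE 0.12, limma adjusted p = 0.264) and -0.46 with cpdA (SE 0.12, adjusted p = 0.224), and without LPS 3 these were -0.28 and -0.35.

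Psap encodes prosaposin, the precursor of small proteins that present lipids to the hydrolases, and was the most abundant of the 41. Its counts were 593386, 572370 and 446953 with LPS, 580894, 611556 and 562363 with DHA and 587958, 559980 and 527078 with cpdA. The groups overlapped, and LPS 3 was the lowest library. Hexa, encoding the alpha subunit of beta-hexosaminidase, had 27783, 26700 and 19806 with LPS, 25745, 27976 and 26323 with DHA and 25624, 25438 and 22236 with cpdA, again lowest in LPS 3. Glb1, encoding beta-galactosidase, was lower in all 3 DHA libraries than in any LPS library, by a mean of -0.13 (SE 0.09, limma adjusted p = 0.496), and its cpdA libraries overlapped LPS. The remaining 5 genes, Gaa, Gusb, Neu1, Asah1 and Smpd1, had changes between 0.00 and 0.18 in both comparisons with LPS and overlapping libraries.

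The proton pump (V-ATPase) acidifies the lysosome, with a membrane part (V0) that carries protons and an outer part (V1) that splits ATP. Atp6v1b2, encoding the B subunit of V1, had 25816, 26323 and 26785 with LPS, 22490, 25190 and 24304 with DHA and 22994, 23797 and 22822 with cpdA. All treated libraries were below all LPS libraries, by -0.13 (SE 0.12) and -0.18 (SE 0.12, limma adjusted p = 0.616 and 0.496), but with quantile normalization the changes were 0.05 and 0.06. Atp6v1a, encoding the A subunit of V1 that binds ATP, had 19716, 20110 and 21140 with LPS, 20040, 24414 and 22712 with DHA and 19040, 21188 and 22875 with cpdA, so the groups overlapped. The V0 subunit gene Atp6v0d2, known from osteoclasts and macrophages, varied most within the treated groups among the 5 pump genes. It had 15285, 15776 and 15968 with LPS, 14403, 22954 and 19863 with DHA and 14279, 14596 and 22364 with cpdA, where DHA 2, DHA 3 and cpdA 3 were above and the other treated libraries below the LPS libraries. The ubiquitous form Atp6v0d1 and the regulatory subunit gene Atp6v1h had changes between 0.05 and 0.13.

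The autophagy genes had the highest median change of the role groups, 0.25 with DHA and 0.25 with cpdA, with 6 of 8 positive in each. Without cpdA 3 and LPS 3 these medians were 0.19 and 0.10. The 47 other autophagy genes of the wider set described below had medians of 0.05 with DHA and 0.03 with cpdA. Of those 47, 57.4% and 53.2% were positive, against 49.8% and 49.4% of all genes, so the medians of the 8 do not stand for autophagy genes at large. Wipi1, whose protein binds the lipid that marks the forming autophagosome, had the lowest level per kb of the 41. Wipi1 counts were 137, 165 and 135 with LPS, 236, 272 and 222 with DHA and 241, 185 and 214 with cpdA. No treated library reached down to the LPS range, and the change was 0.74 with DHA (SE 0.15, limma adjusted p = 0.183) and 0.55 with cpdA (SE 0.15, adjusted p = 0.224). It was called with DHA once cpdA 3 was left out (adjusted p = 0.0406, when 373 genes, 2.68%, were called), although cpdA 3 is in neither group and enters through the shared estimate of spread.

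Gabarapl1 encodes a ubiquitin-like protein that is attached to the autophagosome membrane. Its counts were 3290, 3403 and 2050 with LPS, 3620, 4482 and 3796 with DHA and 3713, 3443 and 4151 with cpdA. LPS 3 lay well below its group, and the changes of 0.47 and 0.40 (SE 0.19 each, limma adjusted p = 0.321 and 0.367) were 0.24 and 0.17 without it. Map1lc3b, encoding LC3B of the same protein family, had 2538, 2458 and 2065 with LPS, 2615, 3076 and 2753 with DHA and 2606, 2466 and 2737 with cpdA. Its DHA libraries were above LPS (0.26, SE 0.11, limma adjusted p = 0.334, or 0.17 without LPS 3) and its cpdA libraries overlapped LPS.

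Atg7 encodes the enzyme that activates these proteins for attachment. It had 1116, 1118 and 1012 with LPS, 1280, 1724 and 1420 with DHA and 1309, 1186 and 1546 with cpdA, all treated libraries above LPS. The change was 0.44 with DHA (SE 0.13, limma adjusted p = 0.261) and 0.31 with cpdA (SE 0.13, adjusted p = 0.334). Atg5, part of the attachment machinery, was above LPS in all treated libraries, with smaller mean changes (0.19 and 0.20, SE 0.09 each). The margin was narrow, at 1418 in cpdA 1 and 1414 in LPS 2. Ulk1, the kinase that starts autophagy, had changes of 0.24 (0.12 without DHA 2) and 0.29 (0.17 without cpdA 3), with DHA 1 within the LPS range. Becn1, encoding beclin 1 of the lipid kinase complex that nucleates the membrane, was lower in all treated libraries, with mean changes of -0.16 with DHA and -0.22 with cpdA (SE 0.09 each). Its margin was also narrow, at 2421 in DHA 1 and 2430 in LPS 1. Uvrag, a partner of beclin 1, had changes of -0.30 and -0.33 (SE 0.15 each) with overlapping libraries, or -0.15 and -0.18 without LPS 3, its highest library.

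DHA and cpdA were given at different molar doses for the same time, so a difference between these groups is one of treatment as given and not of matched doses. No gene of the 41 was called in limma, nor was any gene in the table (0%), and at an unadjusted p under 0.05 limma gave 0 of the 41 against 142 genes (1.02%). The edgeR and DESeq2 tests also called 0. The largest differences, cpdA minus DHA, were -0.25 for Ctss (95% interval -0.85 to 0.36) and -0.21 for Ctsl (-0.74 to 0.32), and for both the low library was cpdA 3. Without cpdA 3 both were -0.03, and the largest difference was then -0.38, for Atp6v0d2, which was not called (limma adjusted p = 0.754 without cpdA 3 and LPS 3). All 41 intervals lay within a 2-fold difference either way and 36 within a 1.5-fold difference, so smaller differences between the treatments remain possible. For 5 of the 41 (12.2%, against 2.61% of all genes) all cpdA libraries were below all DHA libraries: Lamp1, Ctsk, Ctsl, Hexa and Gusb. The margins were narrow. The highest cpdA and lowest DHA counts were 70031 and 70790 for Lamp1, 5001 and 5080 for Ctsk, and 149973 and 150090 for Ctsl. They were 25624 and 25745 for Hexa, and 18853 and 19182 for Gusb. For 0 of the 41 were all cpdA libraries above all DHA libraries, against 3.04% of all genes, and in either direction 5.65% of all genes did not overlap. The median difference was -0.05 and 12 of 41 were positive, against -0.02 and 45.4% over all genes, and with quantile normalization 20 of 41 were positive.

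The 41 genes also varied between libraries of a group. Levels are given relative to the mean of LPS 1 and LPS 2, which lie near 0 by that choice. The median of the 41 on the log2 scale was then -0.12 in LPS 3 and between -0.06 and 0.02 in the treated libraries. For the 10 proteases this median was -0.15 in LPS 3 and -0.37 in cpdA 3. The 8 autophagy genes had a median of -0.13 in LPS 3 but 0.36 in DHA 2, 0.29 in cpdA 3 and 0.06 to 0.17 in the other treated libraries. Summed over the 41, the genes took 5.76% of the normalized counts of LPS 3, 8.05% of DHA 2 and 6.86% to 7.63% of the other libraries. The sums themselves were 1738573.1 in LPS 3, 1875445.0 in cpdA 3, 2254300.0 in DHA 2 and 2114513.7 to 2250730.9 in the others. The totals over all tested genes were 24568837.8 in cpdA 3, 28004746.5 in DHA 2 and 29675891.5 to 31652756.7 in the others. The high shares of DHA 2 and cpdA 3 thus go with low totals.

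Leaving out LPS 3 and cpdA 3 moved 30 of the 41 changes towards 0 for DHA and 31 of the 41 for cpdA. The median change was then -0.01 for DHA and -0.06 for cpdA, with 20 and 17 of the 41 positive, against 48.6% and 49.5% of all genes. Npc1 (0.40, SE 0.10, limma adjusted p = 0.0372) and Wipi1 (0.69, SE 0.16, limma adjusted p = 0.0251) were called higher with DHA. These 2 of 41 are 4.88%, against 6.79% of all genes called in that fit (943), and 11 of the 41 had an unadjusted p under 0.05 in limma, against 23.2% of all genes. With cpdA 0 of the 41 were called, against 1.60% of all genes (222), and 4 had an unadjusted p under 0.05 in limma, against 11.7%. The autophagy changes under DHA without those libraries were 0.24 for Gabarapl1, 0.39 for Atg7, 0.17 for Map1lc3b and -0.13 for Becn1. With weights that count such libraries less in place of leaving them out, limma called 14 of the 41 with DHA (34.1%, against 31.0% of all genes) and 2, Gla and Wipi1, with cpdA (4.88%, against 4.05%). The weights were 0.2227 for LPS 3 and 0.1303 for cpdA 3, but also 0.5142 for DHA 1, 0.7225 for DHA 2 and 6.517 for DHA 3. The DHA mean of that fit therefore rested mostly on DHA 3.

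**Figure D4:**
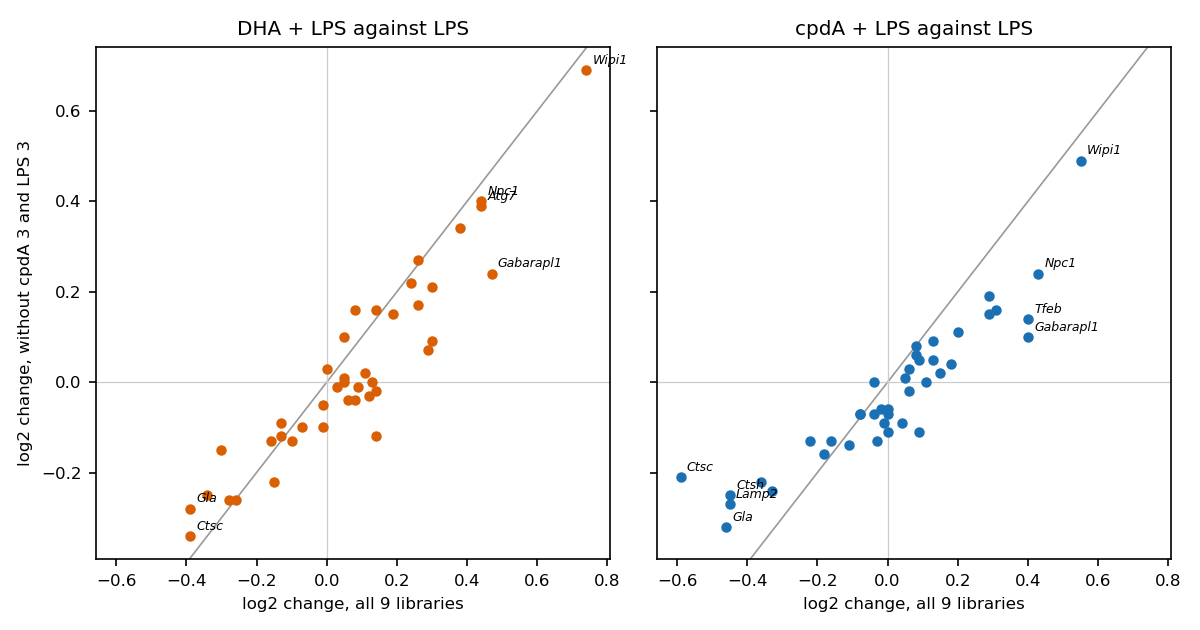
Each point is 1 of the 41 genes, with its log2 change against LPS in all 9 libraries on the horizontal axis and without cpdA 3 and LPS 3 on the vertical axis, for DHA and cpdA. Points off the diagonal moved with those libraries, as Gabarapl1 did (0.47 to 0.24 with DHA, 0.40 to 0.10 with cpdA), while Wipi1 with DHA moved from 0.74 to 0.69.

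A wider set of 173 tested genes gave the rest of the pathway: other hydrolases and their sorting receptors, other membrane proteins, other pump subunits, other autophagy genes, and regulators of mTORC1 and TFEB. In limma 0 of the 173 were called in any comparison, and cpdA against DHA gave 1 at an unadjusted p under 0.05. With DHA 110 were positive with a median of 0.06, and 27 had an unadjusted p under 0.05 (21 higher and 6 lower). These are 63.6% positive, against 49.8% of all genes, and 15.6% with an unadjusted p under 0.05, against 14.2%. Over all genes 7.49% were higher with DHA and 6.66% lower at that threshold. With cpdA 100 were positive with a median of 0.04, and 26 had an unadjusted p under 0.05 (19 higher and 7 lower). These are 57.8% positive (71.7% with quantile normalization), against 49.4% of all genes, and 15.0% with an unadjusted p under 0.05, against 14.6%. Over all genes 6.56% were higher with cpdA and 8.05% lower at that threshold. For neither compound did the share in both directions stand far from that of all genes. The split by direction did differ, since most of the 27 and of the 26 were higher and all genes divided more evenly. That difference in split was not tested. Without cpdA 3 and LPS 3, 57.8% of the 173 were positive with DHA and 50.3% with cpdA, against 48.6% and 49.5% of all genes. At an unadjusted p under 0.05 in limma, 35 were then higher and 14 lower with DHA (28.3%, against 23.2% of all genes). With cpdA 11 were higher and 7 lower (10.4%, against 11.7%), so the split with cpdA depended on those libraries. Sort1, encoding the sorting receptor sortilin that carries some hydrolases to the lysosome, had the largest change among those with DHA. Its counts were 2131, 2080 and 983 with LPS, 3897, 4136 and 4011 with DHA and 3701, 3463 and 3571 with cpdA. All 6 treated libraries were well above the LPS libraries, and the changes were 1.30 (SE 0.26, limma adjusted p = 0.183) and 1.13 (SE 0.26, adjusted p = 0.198). Without LPS 3 and cpdA 3 Sort1 was called higher with DHA (0.93, SE 0.08, limma adjusted p = 0.000161) and with cpdA (0.77, SE 0.08, adjusted p = 0.00168).

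Tm6sf1, encoding a lysosomal membrane protein, had 1186, 1222 and 1234 with LPS, 1656, 1901 and 1763 with DHA and 1761, 1687 and 1528 with cpdA. The groups were tight and apart, with changes of 0.54 and 0.45 (SE 0.09 each, limma adjusted p = 0.159 and 0.161). Without LPS 3 and cpdA 3 they were 0.56 (limma adjusted p = 0.00308) and 0.52 (adjusted p = 0.0149). Sqstm1 encodes p62, the receptor that links ubiquitin-tagged cargo to the autophagosome. It had 29139, 28978 and 11440 with LPS, 49809, 33812 and 39811 with DHA and 49495, 43435 and 30565 with cpdA, above LPS in all treated libraries. Its changes of 0.93 and 0.92 (SE 0.36 each, limma adjusted p = 0.312 and 0.299) were 0.48 and 0.67 without LPS 3 and cpdA 3. Acp5, encoding the acid phosphatase known from osteoclasts, had a count of 8806 in cpdA 3 and 22976 to 43856 in the other libraries, and changes of -0.46 (SE 0.46) and -0.84 (SE 0.46). Without LPS 3 and cpdA 3, limma called 11 of the 173 with DHA (6.36%, against 6.79% of all genes) and 3 with cpdA (1.73%, against 1.60%), shares close to those of all genes. The 6 higher with DHA were Sort1, Tm6sf1, the lipid transporter gene Abca2 (0.40), the pump regulator gene Dmxl2 (0.68), the autophagy receptor gene Calcoco1 (0.79) and Eif2ak3 (0.59), which encodes the stress kinase PERK. The 5 lower were Acp5 (-0.61), Plbd1 (-0.41), Tmem192 (-0.35), Bnip3 (-0.34), a mitochondrial autophagy receptor, and Vamp8 (-0.38), a membrane fusion protein. The 3 higher with cpdA were Sort1, Tm6sf1 and Ppt2 (0.48), which encodes a thioesterase.

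Several of the wider genes with large mean changes were high in few libraries. Sgsh, encoding the sulfatase of heparan sulfate breakdown, had 123, 122 and 127 with LPS, 118, 529 and 302 with DHA and 110, 107 and 198 with cpdA. Rragd, encoding RagD, a GTPase that recruits mTORC1 and TFEB to the lysosome, had 238, 198 and 226 with LPS, 254, 689 and 480 with DHA and 246, 235 and 680 with cpdA. In both, DHA 2, DHA 3 and cpdA 3 were high and the other treated libraries lay near LPS. DHA 2 was also the highest of the DHA libraries for Hyal1 (378), Arsg (157), Mcoln3 (295), Tpcn1 (820), Wdr7 (1389), Atp6v0a1 (9161), Tecpr1 (3435) and Sesn1 (1176). Their DHA changes lay between 0.53 and 1.21, none called in limma. For Tpcn1 and Sesn1 the DHA and LPS libraries overlapped. For the rest of these genes all DHA libraries, DHA 1 being the lowest, lay above all LPS libraries, so their rise was not confined to DHA 2. The mean changes of Cd164 were -0.44 and -0.58, those of Castor1 were 0.71 and 0.53, and Atp6v0e2, at 4.5 to 52.5 normalized counts, had -0.42 and 0.71, none of them called.

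**Figure D5:**
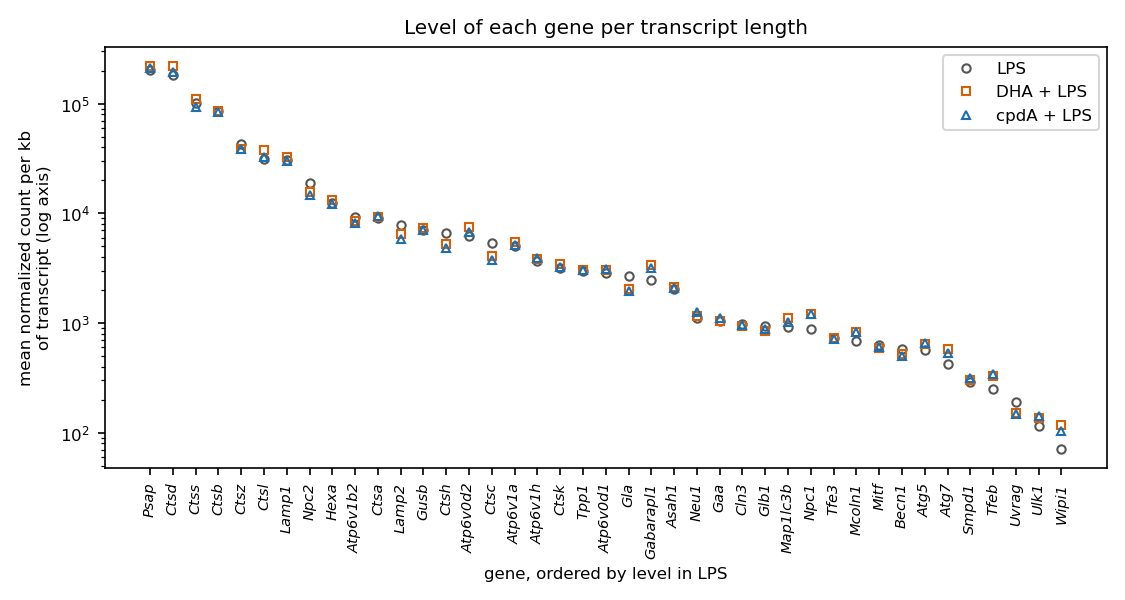
Mean normalized count per kb of transcript for each of the 41 genes in each group (3 libraries), on a log axis. Psap (202300 with LPS) and Ctsd (182600) are at the top and Wipi1 (71.0) at the bottom, and the groups lie close together at each gene compared with the range over genes.

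Levels between genes are compared per kb of transcript, with lengths from GENCODE M21 principal transcripts, since the sources used here do not give the annotation behind the deposited counts. In the LPS libraries the highest mean normalized counts per kb were 202300 for Psap, 182600 for Ctsd, 102300 for Ctss and 85860 for Ctsb. The lowest were 71.0 for Wipi1, 115.6 for Ulk1, 189.3 for Uvrag and 251.4 for Tfeb. Of the TFEB family, Tfe3 (737.4) and Mitf (637.0) had higher levels per kb than Tfeb with LPS. Atp6v0d2 had 6174 and Atp6v0d1 2836 per kb with LPS, so the form known from osteoclasts and macrophages was the higher of these V0 subunits.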

How the data were processed

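RNA-seq of 9 libraries in 3 groups of 3 was analysed, grouped by their titles. The deposited signal values are read counts, each library's scaled by the authors with a single size factor, which the spacing of low values shows. The submitters' processing notes name CASAVA 1.8.2, Bowtie2, DESeq and build mm9, with no role given. The sources used here give no counting program, annotation, library kit or strand setting. Values of overlapping, antisense and near-copy genes (Map1lc3b and Gabarapl1 have family members) may therefore include shared reads. Labels on cell growth and extraction concern neural stem cells and chromatin and were set aside.

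Whole reads were recovered for 99.928% to 99.993% of values per library, within a rounding of 0.05, with a depth of 13797079 to 37572822 reads. The filter kept genes reaching 10 normalized counts in 3 libraries or more. Values were analysed as log2(value + 1), which understates changes of low genes, in limma 3.58.1 (R 4.3.3, statmod 1.5.0) with a mean per group, all 9 libraries in 1 fit, trend and robust moderation. Adjusted p-values are Benjamini-Hochberg over all kept genes, with a threshold of 0.05. The procedure was also run on simulated counts without outlying libraries. Such a run cannot show how it performs with libraries such as LPS 3 and cpdA 3. Recovered counts were also tested with edgeR 4.0.16 and DESeq2 1.42.0, the latter leaving the adjusted p missing for 279 genes (DHA with LPS), 1895 genes (cpdA with LPS) and 9 genes (cpdA with DHA).

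The 41 genes, the wider lists, the tests and the alternatives were chosen with earlier results of these data known. Counts in every library are given for the 6 genes with the largest change in each comparison with LPS, the 2 most abundant of each role group and the TFEB family, plus Mcoln1 and Atp6v0d2, and as ranges for Ctsl and Ctss. Of each wider list, the genes called and the 3 with the largest change in each comparison with LPS are named. Mcoln1, Ctsl, Ctss, Atp6v0d2 and the wider genes shown by library were picked after their values were seen. Of 180 wider genes 175 were found, 3 by gene ID.

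What a replicate number stands for is not labelled. Deviations from group means of same-number libraries correlated at 0.387, 0.234 and 0.437 for LPS and cpdA, all over 0.1. They correlated at 0.14, -0.0654 and 0.0199 for LPS and DHA, and at 0.407, -0.345 and 0.013 for DHA and cpdA. Some libraries of different number correlated as highly: LPS 2 with cpdA 1 (0.292), LPS 1 with cpdA 2 (0.264) and DHA 2 with cpdA 3 (0.452). Others were negative, as LPS 3 with cpdA 1 (-0.432). Deviations from a group mean cancel out within the group, so some negative values follow from how they were computed. These values therefore cannot tell whether libraries were paired. The main fit had no block, and a replicate block was run as an alternative.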

Additional observations from a re-analysis of the deposited data

How the results depend on the processing

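Pseudocounts of 0.5 and 8, other filters, TMM scaling, plain limma moderation, a fit of only the libraries compared, and edgeR left the numbers of genes called at 0 of the 41 in each comparison, with medians close to those reported. With a replicate block 0 of the 41 were called in each comparison and the medians were 0.08 for DHA, 0.04 for cpdA and -0.05 for cpdA against DHA, so the block changed no call. It lowered the count at an unadjusted p under 0.05 in limma from 8 to 6 for DHA (14.6%, against 14.9% of all genes). For cpdA the count went from 11 to 7 (17.1%, against 14.6%). For DHA against LPS the number called was 2 without cpdA 3 and LPS 3, and 1 with DESeq2. It was 14 with library weights, which rested the DHA mean mostly on DHA 3 (31.0% of all genes were then called). Leaving out 1 library in turn gave 0 to 1, the 1 being Wipi1 without cpdA 3. For cpdA against LPS 2 were called with library weights and 2 with DESeq2, and leaving out 1 library gave 0. The median change for DHA was 0.17 with quantile normalization, -0.01 without cpdA 3 and LPS 3, -0.02 with library weights, and -0.01 to 0.11 with 1 library left out. For cpdA it was 0.18, -0.06, -0.06 and -0.06 to 0.07 under the same settings. The median of cpdA minus DHA was -0.01 with quantile normalization and -0.10 to -0.02 with 1 library left out. The medians of both comparisons with LPS crossed 0 when LPS 3 alone was left out, and the cause was not tested. Of 2706 changes of single genes under an alternative, 22 were newly called and 151 differed in sign without being called. With 3 libraries per group, at least 40 of 41 intervals lay within a 2-fold change in each comparison, and 25, 26 and 36 within a 1.5-fold change.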
